A study of Mus musculus with 6 samples.

Results

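The antigen presentation genes followed here encode MHC class I molecules and the proteins that supply them with peptide: B2m, H2-K1, H2-D1, Tap1, Tap2, Tapbp, Psmb8, Psmb9, Psmb10 and Nlrc5. They were chosen by name, and all 10 had a row among the 19739 genes of the deposited table. All 10 also passed the filter on low values that left 16394 genes for testing. RNA was sequenced from 6 libraries of primary mouse mammary luminal cells of WT genotype, which had been sorted by flow cytometry and grown in medium with serum, EGF, FGF2, heparin and the ROCK inhibitor Y-27632. All cultures were starved for 12 hours before a 24-hour exposure to EFNA3 (ephrin-A3, a ligand of Eph receptors), which was at 0 µg/ml in 3 control libraries and at 1 µg/ml in 3 EFNA3 libraries. The labels give no strain, age or sex and do not say whether replicates were separate mice or cultures. The p-values therefore reflect spread among these 6 libraries, which may be technical. Values are log2 normalized expression as deposited, with all libraries at 1 common distribution whose median is 8.10. Depth is unknown, and in bulk RNA a change in the number of cells of a type cannot be told apart from a change of RNA per cell.

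An MHC class I molecule is a polymorphic heavy chain paired with beta-2 microglobulin, and it shows short peptides from inside the cell to CD8 T cells. Proteasomes cut the peptides, the TAP transporter carries them into the endoplasmic reticulum, and tapasin holds the empty molecule near TAP until a peptide binds. Interferons and NF-kB are known inducers of these genes in epithelial cells, including those of the mammary gland, and NLRC5 is a transactivator of the class I promoters. Several of these genes are neighbours in the mouse MHC: in the RefSeq annotation Psmb9, Tap1, Psmb8 and Tap2 follow one another on chromosome 17, where H2-K1, H2-D1 and Tapbp also lie, while B2m is on chromosome 2 and Psmb10 and Nlrc5 are on chromosome 8.

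The promoters of B2m and of both heavy chains are shown first because the textbook elements of class I control stand in them in nearly the same order. The sequences are RefSeq's for build GRCm38.p6, an earlier build than the mm39 named in the submitters' processing notes. Each runs 5′ to 3′ over the 250 bases before the transcript start, and capitals mark motif matches. B2m lies at chr2:122147437-122147686 on the plus strand, H2-K1 at chr17:34000348-34000597 on the minus strand and H2-D1 at chr17:35262844-35263093 on the plus strand.
B2m: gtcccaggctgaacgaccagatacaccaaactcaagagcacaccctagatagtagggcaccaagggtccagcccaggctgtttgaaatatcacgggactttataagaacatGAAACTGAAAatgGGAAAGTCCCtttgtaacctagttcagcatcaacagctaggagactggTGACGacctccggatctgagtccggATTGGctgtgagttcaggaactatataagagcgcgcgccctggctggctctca
H2-K1: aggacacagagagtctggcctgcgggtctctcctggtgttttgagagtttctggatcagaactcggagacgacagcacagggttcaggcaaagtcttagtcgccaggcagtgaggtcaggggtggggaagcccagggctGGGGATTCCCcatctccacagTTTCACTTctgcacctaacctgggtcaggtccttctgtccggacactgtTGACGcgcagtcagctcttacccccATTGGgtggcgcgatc
H2-D1: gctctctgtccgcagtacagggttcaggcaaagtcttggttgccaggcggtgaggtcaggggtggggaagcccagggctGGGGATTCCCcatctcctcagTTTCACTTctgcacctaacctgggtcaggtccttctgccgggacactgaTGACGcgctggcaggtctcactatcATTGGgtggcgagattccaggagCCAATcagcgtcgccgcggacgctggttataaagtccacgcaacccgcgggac

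The motifs were searched on both strands. They were GGG, any 2 bases, TT, any base and CC for NF-kB, GAAA, any 2 bases and GAAA for interferon regulatory factors (IRF), TTTCNNTT as a shortened IRF motif that can lie inside the longer one, TTCNNNGAA for STAT factors (GAS), TGACG as a core of CREB and ATF sites, and CCAAT for NF-Y. An NF-kB match was found in 3 of the 8 members with a promoter in the table, namely B2m, H2-K1 and H2-D1, against 4.00% of 27025 mouse promoters of the same length. The shortened IRF motif was found in the same 3 members, against 21.6% of promoters, and in B2m it lay inside a full IRF match, which 3.04% of promoters hold. TGACG was found in 5 of 8 members and CCAAT in 6 of 8, against 17.9% and 34.5% of promoters. The TGACG and CCAAT matches of Tap1 and Psmb9 are the same bases, counted for both genes. In H2-K1 and H2-D1 the 111 bases from the NF-kB match to the H2-K1 start were 88.3% identical. The member counts are therefore not counts of independent promoters. Psmb8 held the only GAS match, which 7.18% of promoters hold. RefSeq gives H2-K1 a further start, whose window holds the same NF-kB match. The window of Psmb10 held none of these letters, and Tap2 and Nlrc5 had no entry. A match is a run of letters and does not show that a factor binds.

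**Figure D1:**
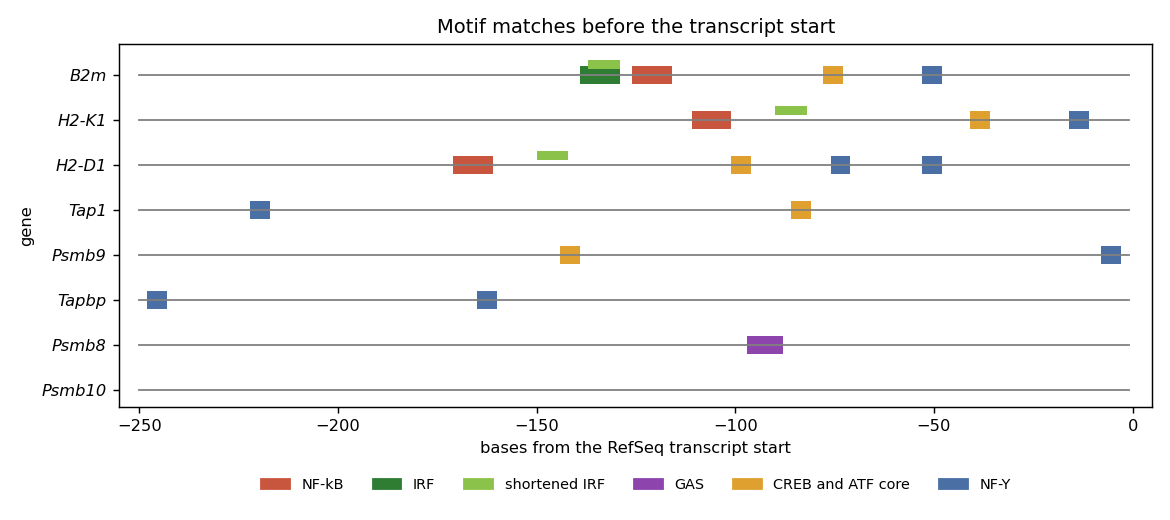
Motif matches in the 250 bases before the RefSeq transcript start of 8 genes, with the distance from the start in bases on the x axis and 1 gene per line. B2m, H2-K1 and H2-D1 each hold NF-kB, shortened IRF, TGACG (CREB and ATF core) and CCAAT (NF-Y) matches; in B2m the IRF match lies before the NF-kB match and in both heavy chains after it.

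Tap1 and Psmb9 are transcribed in opposite directions from 1 stretch of 225 bases, which is why it is shown: any element in it stands before both genes. It lies at chr17:34187331-34187555 and is printed on the plus strand, the strand of Tap1.
Tap1 and Psmb9: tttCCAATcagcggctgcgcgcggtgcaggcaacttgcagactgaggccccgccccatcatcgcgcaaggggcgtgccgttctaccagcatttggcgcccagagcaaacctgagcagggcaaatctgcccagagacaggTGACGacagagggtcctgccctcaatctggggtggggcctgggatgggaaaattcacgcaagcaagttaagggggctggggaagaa
It holds 1 CCAAT match near the Psmb9 start and 1 TGACG match nearer to Tap1.

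The comparison of EFNA3 with control libraries asks how the ligand affects luminal cells. As deposited, genes of class I presentation stood slightly higher with EFNA3. When libraries were centred on Psmb5, Psmb6 and Psmb7, 3 of 10 members had a higher mean, with the median of all tested genes at -0.26. The 3 were B2m, Psmb9 and Psmb10. At least 88.8% of tested genes had a lower mean then, the share with a deposited difference up to that of Ptpn2 (0.258), which the centring turns negative. In the values as deposited 9 of 10 had a higher mean, against 50.8% of all tested genes. Their median log2 difference was 0.20, against 0.00 over all tested genes. No member passed limma with Benjamini-Hochberg adjustment over all tested genes, and neither did any other gene (0.00% called, smallest adjusted p = 0.55). At an unadjusted limma p under 0.05 stood 2 members, B2m and Psmb10, against 6.73% of tested genes (1104). Both were higher with EFNA3, as were 3.87% of tested genes at that p, and none of the members was among the 2.86% that were lower. Groups did not overlap in 3 members, B2m, Psmb9 and Psmb10, against 16.0% of tested genes. All 3 were higher with EFNA3, as were 8.53% of tested genes, while 7.45% were lower without overlap. EFNA3 replicate 1 was the highest library in 9 of 10 members and the lowest for Nlrc5, against 35.2% and 33.2% of tested genes. Without that library 8 of 10 members were higher, against 49.8% of tested genes, the median difference was 0.11, and the same 3 members had no overlap, against 19.6% of tested genes. Leaving out EFNA3 replicate 1 gave 1 member at an unadjusted p under 0.05 (4.61% of tested genes), as did leaving out control replicate 1 (3.46%) or control replicate 2 (3.12%). Leaving out control replicate 3 gave 5 such members, against 4.51% of tested genes, and 8 without overlap, against 33.3%. Among those 8, Nlrc5 was lower with EFNA3 (-0.43). Leaving out EFNA3 replicate 3 also gave 5 and 8, against 15.1% and 33.8% of tested genes. That centring on the constitutive proteasome genes shifts the difference of every gene by -0.27. The members' median was then -0.067, against -0.26 over all tested genes. Directions of all other genes below are as deposited, and the centring turns positive differences smaller than that shift negative and makes negative ones larger.

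**Figure D2:**
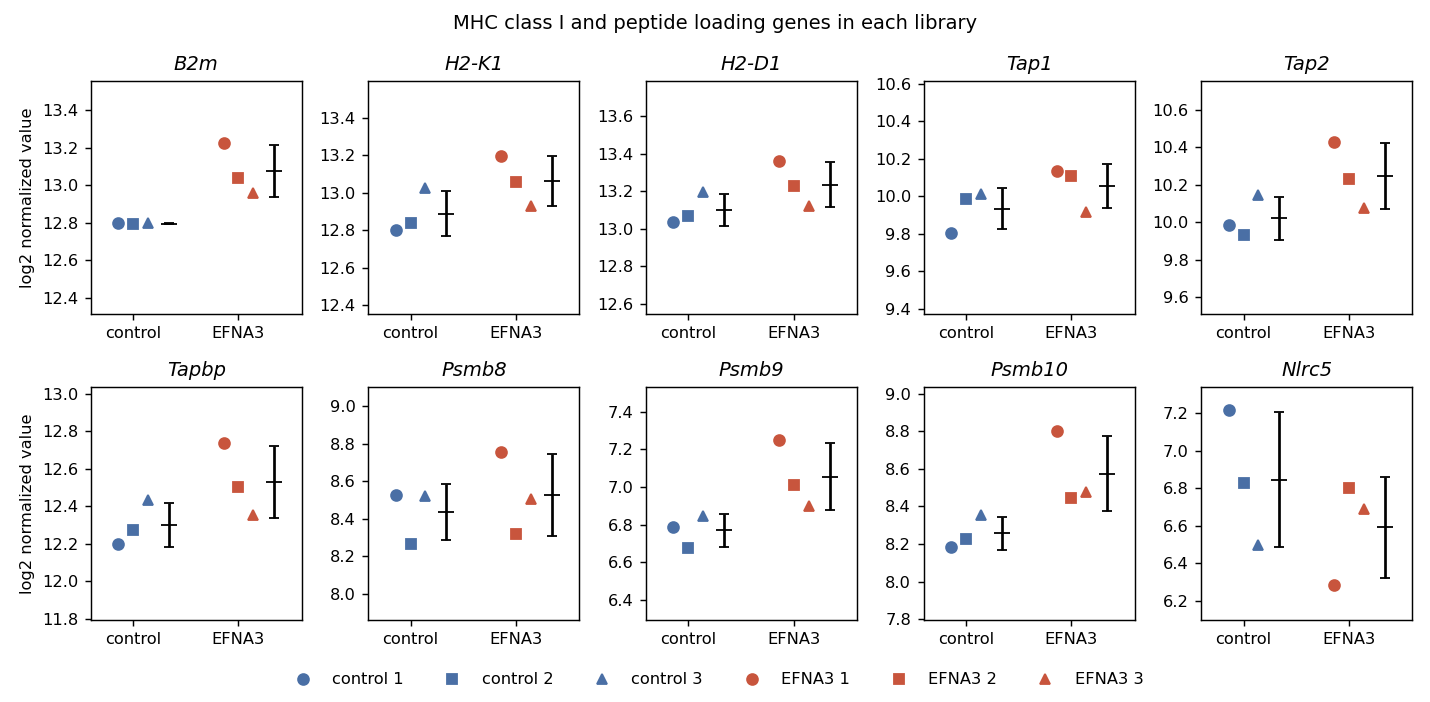
Log2 normalized value (y axis) of each of the 10 genes in the 3 control and 3 EFNA3 libraries, 1 panel per gene with the same span; bars are mean ± SD, n = 3 per group. As deposited, all 3 EFNA3 libraries lie above all controls for B2m, Psmb9 and Psmb10, the groups overlap for the other 7, and centred on Psmb5, Psmb6 and Psmb7 the groups overlap for all 10.

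B2m and the heavy chains were among the most abundant RNAs of these cells. By mean value, which is not per length, H2-D1 ranked 321, H2-K1 406 and B2m 428 of 19739 genes. Per kilobase of transcript, the log2 level in controls was 13.01 for B2m, 12.19 for H2-K1 and 12.03 for H2-D1. So the shared light chain stood above either heavy chain on that scale. Reads of H2-K1 and H2-D1 can be split between near-identical class I genes, and the mouse strain is not given, so the level of each heavy chain is uncertain.

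B2m, the light chain of class I molecules, stood at 12.80, 12.79 and 12.80 in control replicates 1, 2 and 3 and at 13.23, 13.04 and 12.96 in EFNA3 replicates 1, 2 and 3. All EFNA3 libraries were above all controls, and the controls were nearly equal, with an SD of 0.0019 against 0.14 with EFNA3. The difference was 0.28 (SE 0.08), or 1.21-fold, with a 95% interval from 0.10 to 0.46 (limma unadjusted p = 0.0069, adjusted p = 0.55). It was 0.20 without EFNA3 replicate 1 and 0.16 after a trend with transcript length and GC share was taken out of each library. B2m was the only gene of the 10 that stayed at an unadjusted p under 0.05 in each of the 6 fits that left out 1 library. It was not at that p when centred on Psmb5, Psmb6 and Psmb7. Nor was it when blocked by the replicate numbers in the descriptions, where its difference was 0.30 with a larger SE of 0.20.

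H2-K1, a classical class I heavy chain, stood at 12.80, 12.84 and 13.02 in the controls and at 13.20, 13.06 and 12.93 with EFNA3. H2-D1, the other classical heavy chain in this set, stood at 13.03, 13.07 and 13.20 and at 13.36, 13.23 and 13.12. In both genes the groups overlapped, since control replicate 3 lay above EFNA3 replicate 3. The difference was 0.17 (SE 0.09, 95% interval from -0.04 to 0.38) for H2-K1 and 0.14 (SE 0.08, interval from -0.05 to 0.33) for H2-D1. Without EFNA3 replicate 1 the difference was 0.10 for H2-K1 and 0.074 for H2-D1. Within each library H2-K1 minus B2m was 0.01, 0.05 and 0.23 in controls and -0.03, 0.02 and -0.03 with EFNA3, which overlap. H2-D1 minus B2m was 0.24, 0.27 and 0.40 in controls and 0.14, 0.19 and 0.16 with EFNA3, so every EFNA3 library was lower. That difference of -0.14 had an exact two-sided permutation p of 0.1, the smallest that 3 against 3 libraries can give. The pair was looked at after the values were seen. Its genes differ in transcript length, at 2102 nt for H2-D1 and 860 nt for B2m. With the length and GC trend taken out, the EFNA3 difference was 0.093 for H2-D1 and 0.16 for B2m.

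Other heavy chains and class I-like genes did not share 1 direction. Of 23 listed genes 17 had a row and 13 were tested. Of those, 10 were higher and 3 lower, with a median of 0.15 and 0 called by limma, and 1 stood at an unadjusted p under 0.05. The shares over all tested genes, for this and the later lists, were 50.8% higher, 6.73% at that p and 16.0% without overlap. The nonclassical H2-T23, which encodes Qa-1, a ligand of NK cell receptors, went from 12.46 ± 0.12 to 12.67 ± 0.18 (SD, n = 3), a difference of 0.20 (SE 0.10). H2-T24 stood at 6.45, 6.80 and 6.22 in controls and at 4.48, 6.08 and 5.91 with EFNA3. Every EFNA3 library was lower, by a log2 difference of -0.998 (SE 0.39) in all and of -0.49 without EFNA3 replicate 1. Mr1, which presents vitamin B metabolites, differed by -0.20 (SE 0.11), and Procr, a class I-like receptor of protein C, by 0.35 (SE 0.17).

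Transporter and loading genes differed by similar amounts. Tapbp encodes tapasin and was the most abundant of them per kilobase, at 10.8 in controls against 8.37 for Tap1 and 8.24 for Tap2. It stood at 12.20, 12.27 and 12.43 in controls and at 12.74, 12.50 and 12.35 with EFNA3. EFNA3 replicate 3 lay below control replicate 3, so the groups overlapped, with a difference of 0.23 (SE 0.11, 95% interval from -0.01 to 0.47). Tap2, a subunit of the TAP transporter, stood at 9.98, 9.93 and 10.15 in controls and at 10.43, 10.23 and 10.08 with EFNA3. Its pattern was the same, with overlap through those libraries and a difference of 0.23 (SE 0.11, interval from -0.01 to 0.46). Tap1, which pairs with Tap2, stood at 9.81, 9.99 and 10.01 and at 10.13, 10.11 and 9.92, a difference of 0.12 (SE 0.09, interval from -0.09 to 0.33). Without EFNA3 replicate 1 the differences were 0.13 for Tapbp, 0.13 for Tap2 and 0.079 for Tap1.

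Chaperones and trimming enzymes of the endoplasmic reticulum were mixed. All 12 listed genes were tested; 8 were higher and 4 lower, with a median of 0.04 and 0 called by limma. Pdia3 (ERp57, which works beside tapasin) differed by 0.14 (SE 0.08), the chaperone genes Calr and Canx by 0.08 (SE 0.07) and -0.0028 (SE 0.07), and the tapasin-related Tapbpl by 0.04 (SE 0.10). Erap1, which trims peptides, differed by -0.16 (SE 0.12). By smallest p the list was led by Sec61b of the translocon at 0.34 (SE 0.15), the only gene of the list at an unadjusted p under 0.05. Then came Uggt1, which checks glycoprotein folding, at -0.15 (SE 0.08), and the chaperone gene Hspa5 at 0.15 (SE 0.08). Without EFNA3 replicate 1 the differences were 0.16 for Sec61b, -0.08 for Uggt1 and 0.07 for Hspa5. With the length and GC trend taken out they were 0.19, 0.05 and 0.19.

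Immunoproteasome subunits replace the constitutive catalytic subunits in cells that meet interferon. Psmb10 stood at 8.19, 8.23 and 8.36 in controls and at 8.80, 8.45 and 8.48 with EFNA3. Psmb9 stood at 6.79, 6.67 and 6.85 and at 7.25, 7.01 and 6.90. In both genes all EFNA3 libraries were above all controls. The difference was 0.32 (SE 0.12, 95% interval from 0.04 to 0.60; limma adjusted p = 0.55) for Psmb10, or 1.25-fold, and 0.28 (SE 0.15, interval from -0.05 to 0.62) for Psmb9. Without EFNA3 replicate 1 it was 0.20 for Psmb10 (limma unadjusted p = 0.077, against 0.029 with all 6 libraries) and 0.19 for Psmb9. Psmb8 stood at 8.53, 8.26 and 8.52 and at 8.75, 8.32 and 8.51, which overlap. Its difference was 0.09 (SE 0.14, interval from -0.22 to 0.40) and turned to -0.023 without EFNA3 replicate 1, to -0.035 with library weights and to -0.17 when centred on Psmb5, Psmb6 and Psmb7.

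The constitutive subunits also stood higher as deposited, which is what the centring above takes out. Psmb5, which Psmb8 replaces, went from 10.23 ± 0.06 to 10.55 ± 0.27 (SD, n = 3), a difference of 0.32 (SE 0.12). Psmb6, replaced by Psmb9, differed by 0.23 (SE 0.14) and Psmb7, replaced by Psmb10, by 0.24 (SE 0.13). Without EFNA3 replicate 1 these were 0.18 for Psmb5, 0.048 for Psmb6 and 0.074 for Psmb7. The centring subtracted 0.47 from that library and 0.0060 and -0.073 from EFNA3 replicates 2 and 3. Per transcript length the immuno form made up 13.8% ± 0.858 of Psmb8 and Psmb5 together in controls and 12.0% ± 1.36 with EFNA3 (SD, n = 3). It made up 2.48% ± 0.0217 and 2.58% ± 0.254 of Psmb9 and Psmb6, and 12.1% ± 0.558 and 12.7% ± 0.684 of Psmb10 and Psmb7. In each library, then, the constitutive RNA was the larger part at all 3 catalytic positions.

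The log2 difference between the forms within a library was compared for these 3 pairs. Psmb8 minus Psmb5 was -1.70, -1.91 and -1.76 in controls and -2.09, -2.16 and -1.82 with EFNA3, a difference of -0.23 (95% interval from -0.57 to 0.10). Psmb9 minus Psmb6 differed by 0.05 (interval from -0.19 to 0.29) and Psmb10 minus Psmb7 by 0.08 (interval from -0.11 to 0.27). The groups overlapped in all 3 pairs. Exact two-sided permutation p-values were 0.2, 0.6 and 0.3, or 0.45, 0.6 and 0.45 after Benjamini-Hochberg adjustment over the 3 pairs, in a design that cannot go below 0.1. With the length and GC trend taken out the 3 differences were -0.16, 0.11 and 0.063 (exact two-sided permutation p = 0.2, 0.4 and 0.5). A shift of the immuno form against the constitutive form was thus not detectable, and the intervals reach to -0.57 for Psmb8 and Psmb5.

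**Figure D3:**
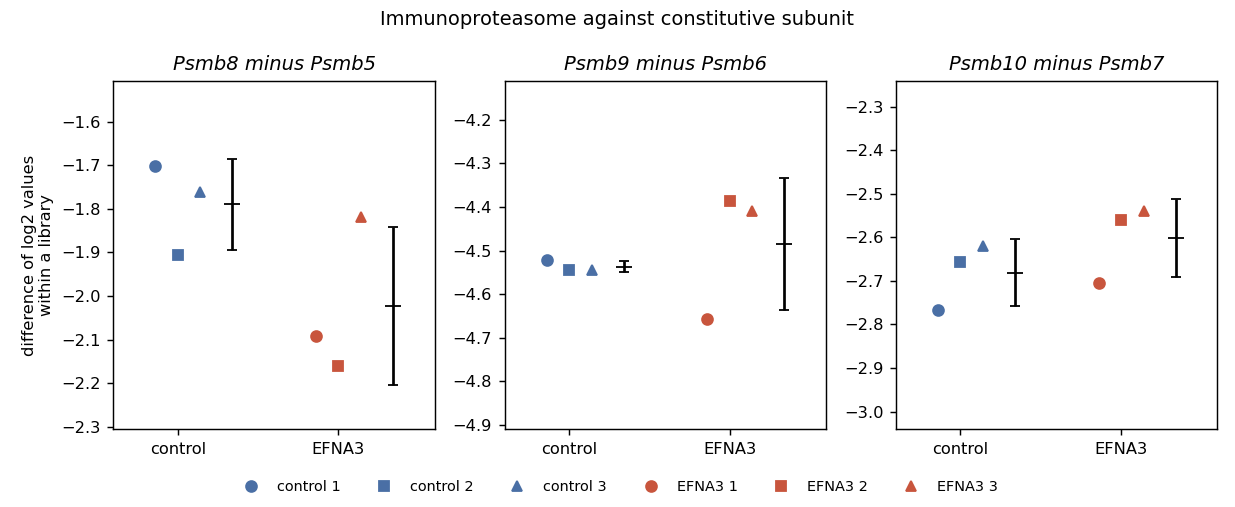
Log2 value of each immunoproteasome subunit minus that of the constitutive subunit it replaces (y axis) in the 3 control and 3 EFNA3 libraries; bars are mean ± SD, n = 3 per group. The groups overlap in all 3 panels, with group means from -1.79 to -2.02 for Psmb8 and Psmb5, -4.54 to -4.48 for Psmb9 and Psmb6 and -2.68 to -2.60 for Psmb10 and Psmb7.

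Psmb9 and Tap1, which share the promoter shown above, were also set side by side. Psmb9 minus Tap1 was -3.02, -3.31 and -3.16 in controls and -2.88, -3.10 and -3.02 with EFNA3, which overlap. The difference was 0.17 (95% interval from -0.13 to 0.46, exact two-sided permutation p = 0.3).

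Of the other proteasome activator and assembly genes, all 10 were tested. Of these, 8 were higher and 2 lower, against 50.8% of all tested genes higher. Their median was 0.17, with 0 called by limma and 1 at an unadjusted p under 0.05 (6.73% of tested genes). The interferon-inducible activator genes Psme1 and Psme2 differed by 0.18 (SE 0.10) and 0.57 (SE 0.26). Psme2 stood at 8.76, 8.68 and 7.96 in controls and at 9.37, 8.48 and 9.25 with EFNA3, which overlap; its reads may be split with a near-identical copy. The assembly chaperone gene Psmg4 stood at 6.76, 6.64 and 6.73 and at 7.49, 7.36 and 7.08, a difference of 0.60 (SE 0.15, limma unadjusted p = 0.0032), with all EFNA3 libraries higher. Pomp, the maturation factor of new proteasomes, differed by 0.27 (SE 0.12) and the assembly gene Psmg3 by 0.35 (SE 0.20).

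Nlrc5, the transactivator, was the 1 member with a lower mean with EFNA3. It stood at 7.22, 6.83 and 6.50 in controls and at 6.29, 6.80 and 6.69 with EFNA3, so the groups overlapped. It was the least abundant member per kilobase, at 3.92 in controls. Its difference was -0.25 (SE 0.22, 95% interval from -0.75 to 0.24) and moved to -0.10 without EFNA3 replicate 1 and to -0.07 without control replicate 1.

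Of 11 transcription factors that act on class I or class II promoters, 4 were higher and 7 lower, with a median of -0.08 and 0 called by limma. At an unadjusted p under 0.05 stood Irf2, lower by -0.19 (SE 0.07), and Rfxap, higher by 0.24 (SE 0.10), each with no overlap between groups. Over all tested genes 6.73% stood at that p and 16.0% had no overlap. Irf2 is known both as a repressor and as an activator of interferon-responsive promoters, and Rfxap is a subunit of the RFX complex. Rfxank, a further RFX subunit, differed by -0.16 (SE 0.08) and Irf1, which interferon induces, by 0.17 (SE 0.09).

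Upstream genes of interferon signalling were split. Of 18 receptors, kinases, STAT and IRF factors and inhibitors, 10 were higher and 8 lower, against 50.8% of all tested genes higher. Their median was 0.05 and 0 were called by limma. At an unadjusted p under 0.05 stood 3, against 6.73% of tested genes. Those were the phosphatase gene Ptpn2 at 0.26 (SE 0.10), the interferon-gamma receptor chain Ifngr2 at 0.20 (SE 0.08) and the interferon-lambda receptor chain Ifnlr1 at -0.22 (SE 0.10). The kinase gene Tyk2 differed by -0.17 (SE 0.08). None of the 6 listed interferon genes, such as Ifnb1 and Ifng, was analysed here.

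Class II genes were low. Of 10 listed, 6 had a row and 3 were tested: H2-DMa differed by 0.29 (SE 0.21), H2-DMb1 by 0.08 (SE 0.20) and Cd74 by -0.01 (SE 0.48). The class II transactivator gene Ciita stood at 4.03 ± 0.22 in controls and 3.75 ± 0.22 with EFNA3 (SD, n = 3). Of ligands for receptors of T and NK cells 4 were tested, with Raet1e at 0.26 (SE 0.20), the PD-L1 gene Cd274 at -0.22 (SE 0.18), Ulbp1 at -0.10 (SE 0.18) and Cd47 at 0.03 (SE 0.07).

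All 16 luminal markers were tested, with Epcam the most abundant, and they summed to 4172 to 4367 ppm of the table's linear sum in controls and 4330 to 4976 with EFNA3. By count 10 of the 16 were higher and 6 lower, with a median difference of 0.10, or 0.03 without EFNA3 replicate 1. Against the direction of the sum, Prlr differed by -0.31 (SE 0.12), Pgr by -0.24 (SE 0.13) and Esr1 by -0.19 (SE 0.13). Basal markers, led by Krt14, summed to 4984 to 5304 and 5290 to 5542 ppm, a sum that rests on the keratins Krt14 (16.26 in controls) and Krt5 (14.92). The contractile basal markers Acta2 and Tagln were lower, at 7.77 and 5.20 in controls, and Myh11 and Cnn1 were below the filter. The other basal markers were not as low, with Oxtr at 13.44, Trp63 at 11.79, Krt17 at 10.09 and Mylk at 9.38 in controls. Of the 8 tested basal markers 4 were higher and 4 lower with EFNA3. Tagln differed by -0.53 (SE 0.30) and Mylk by -0.45 (SE 0.19), against the direction of the sum. Of 23 immune markers, 6 had a row and 3 were tested. Their summed level was 513 to 572 ppm in controls and 545 to 655 with EFNA3, almost all from Cd14, which luminal progenitors also express. Without Cd14 the sum was 6.90 to 8.70 in controls and 6.93 to 9.64 with EFNA3; Ptprc and Cd3e were not analysed here. Fibroblast markers, 8 of 10 tested, summed to 91.9 to 94.2 ppm in controls and 88.2 to 94.0 with EFNA3, a sum led by Pdgfra, which differed by -0.22 (SE 0.10). By count 6 of the 8 were higher and 2 lower, with a median difference of 0.26, or 0.18 without EFNA3 replicate 1 and 0.30 after the length and GC correction. Endothelial markers summed to 17.9 to 21.4 and 18.5 to 19.8. The part of other cells in the class I differences was not tested beyond these sums.

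Transcript length moved with the comparison. Over all tested genes the median difference went from 0.18 in the shortest eighth, up to 966 nt, to -0.17 in the longest, from 5609 nt. EFNA3 replicate 1 departed most: its median deviation from the mean of all libraries was 0.32 in the shortest eighth and -0.32 in the longest. B2m, at 860 nt, lies in the shortest eighth and Nlrc5, at 7578 nt, in the longest. Psmb9 and Psmb10 lie in the second eighth, with a median of 0.13, and H2-K1, H2-D1 and Psmb8 in the third, with 0.08. Tapbp and Tap1 lie in the fifth, where the median was near 0, and Tap2, at 3442 nt, in the sixth, with -0.02.

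With the length and GC trend taken out, the members' median difference was 0.13, against 0.02 over all genes, and 9 of 10 were higher, against 54.5%. Tap2 stood at 0.23 (SE 0.09) and Tapbp at 0.21 (SE 0.08), close to their values as deposited, but with EFNA3 replicate 1 also left out they were 0.14 (limma unadjusted p = 0.057) and 0.13. B2m moved from 0.28 to 0.16 and Nlrc5 from -0.25 to -0.08. Members without overlap were then 5 of 10, B2m, Tap2, Tapbp, Psmb9 and Psmb10, against 15.4% of genes. At an unadjusted p under 0.05 stood 4, B2m, Tap2, Tapbp and Psmb10, against 7.87%, and no member passed after adjustment (smallest limma adjusted p = 0.57).

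**Figure D4:**
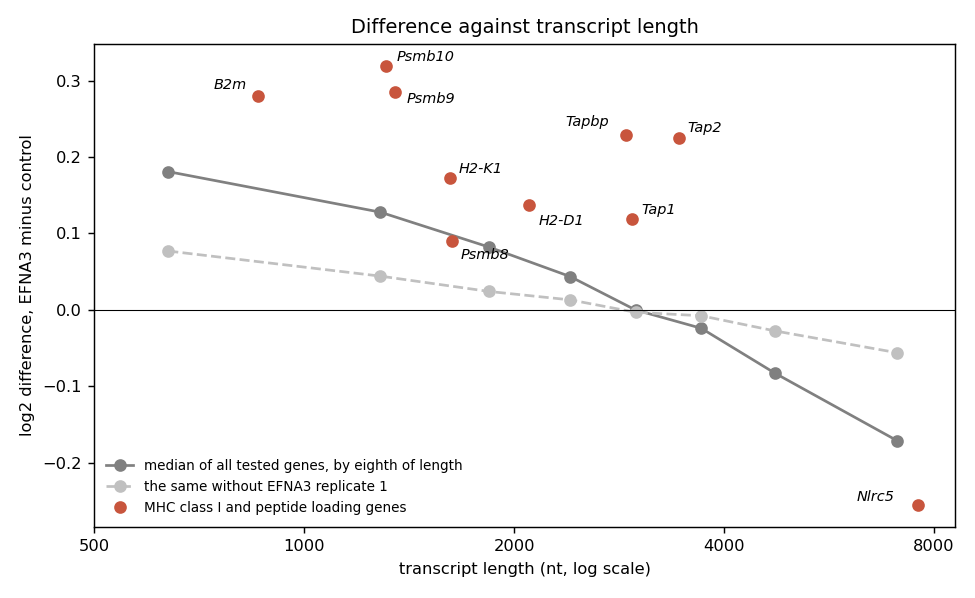
Log2 difference, EFNA3 minus control (y axis), against transcript length in nt (x axis, log scale) for the 10 genes, with the median of all tested genes in each eighth of length. The dashed line gives those medians without EFNA3 replicate 1. As deposited, the 9 genes other than Nlrc5 lie above the median of their own eighth, Psmb8 by the least (0.09 against 0.08), and Nlrc5 lies below its own (-0.25 against -0.17); centred on Psmb5, Psmb6 and Psmb7 all differences are 0.27 lower.

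**Figure D5:**
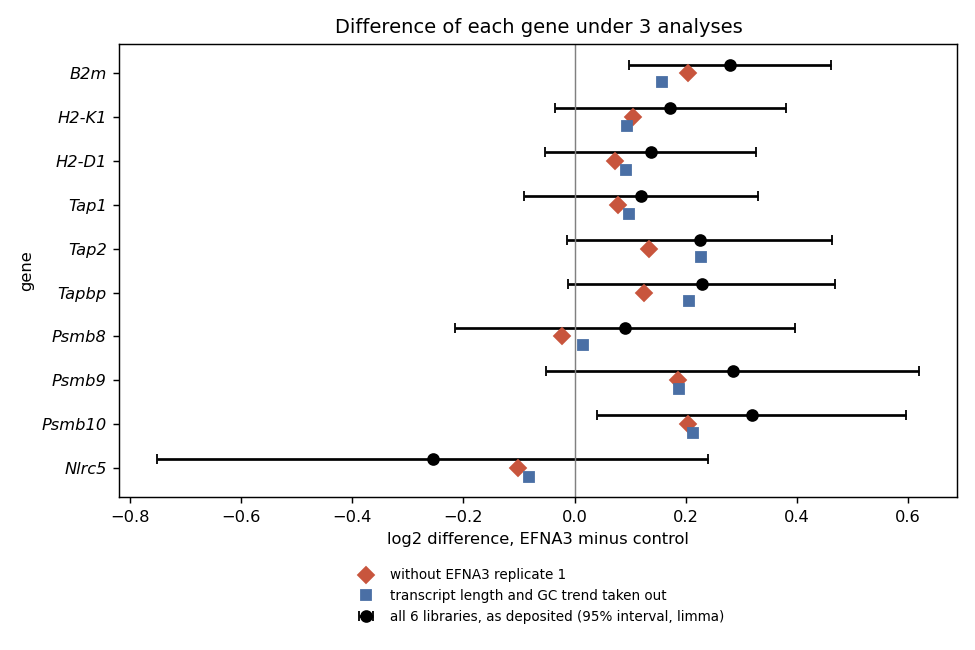
Log2 difference, EFNA3 minus control (x axis), of each gene (y axis) over all 6 libraries (circles, with the 95% interval of limma), without EFNA3 replicate 1 (diamonds) and with the length and GC trend taken out (squares). Of the intervals, drawn for the circles alone, those of B2m and Psmb10 lie above 0, though not when libraries are centred on Psmb5, Psmb6 and Psmb7.

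The members varied together across libraries. The mean deviation of the 10 members from their own means was -0.08, -0.13 and -0.03 in control replicates 1, 2 and 3 and 0.20, 0.06 and -0.02 in EFNA3 replicates 1, 2 and 3. Over the 6 libraries, which share the group difference and the length trend, the Pearson correlation of each member with the mean of the others ran from 0.57 for Psmb8 and 0.68 for Tap1 to 0.99 for Psmb9, and was -0.80 for Nlrc5. Among 11753 other genes with a mean of at least 5.64, those most like the members' mean profile were Golt1b (r = 0.998), Sdc4 (0.996), Ifi30 (0.996), Grwd1 (0.995) and Naa12 (0.995). Correlations over 0.95 were common, with 501 such genes.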

How the data were processed

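The table holds 1 value per gene and library for 6 libraries. Reads went through Trim Galore, Subread and featureCounts against mm39, per the submitters' processing notes. Tool versions, annotation, strand setting and how reads became values were not stated there. Per the labels' protocols the library kit was a stranded one for mRNA. The deposited values were taken as log2 (the base is inferred), and the sorted columns differed by at most 0.00302, as quantile normalization by the authors would give. Library totals are therefore unknown, no counting interval can be given, and a value depends on a gene's rank within its library.

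Columns were matched to samples by the description labels, and groups were taken from the titles. A gene entered the test when 3 or more libraries reached 3.32, which is 10 unlogged. The test was limma 3.58.1 in R 4.3.3 with a mean-variance trend, no pseudocount and Benjamini-Hochberg adjustment over all tested genes at 0.05. The script was tested on simulated data. Length and GC came from 1 GENCODE M21 transcript per gene (the longest principal one where marked), for 98.8% of tested genes, and the correction removed 5-df splines of both from every library. Alternatives covered the filter, pseudocount, scaling, variance model, library weights, replicate blocks, that correction and leaving out each library.

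The rule named every member, fixed counterparts and activators, up to 4 genes of each list by smallest p with its defining genes, and the 5 genes most like the members among those whose mean reached 5.64, or 50 unlogged, leaving out predicted genes. Members and lists were chosen with earlier results of these data known. The promoter motifs were chosen after the values were seen.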

Additional observations from a re-analysis of the deposited data

How the results depend on the processing

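The 9 members with a higher mean and Nlrc5, lower, kept their direction under each alternative, except Psmb8 (-0.035 under library weights, -0.023 to 0.19 when 1 library was left out, negative without EFNA3 replicate 1, and -0.042 with that library left out and length and GC corrected) and the values centred on Psmb5, Psmb6 and Psmb7. That centring gave 0 members at an unadjusted p under 0.05 (5.55% of tested genes) and 0 without overlap (25.0%). It gave 3 higher, while at least 88.8% of tested genes were lower. The members' median was -0.067, against -0.26 over all tested genes. By construction it lowered all genes by 0.27. With it H2-K1 was at -0.093, H2-D1 at -0.13, Tap1 at -0.15, Tap2 at -0.041, Tapbp at -0.037 and Psmb8 at -0.17. The count at an unadjusted p under 0.05, 2 as reported, was 4 under library weights (7.73% of tested genes). It was also 4 once length and GC were corrected (7.87%). Members without overlap, 3 as reported, were 5 with that correction (15.4% of genes). They were also 5 when the replicate block by the titles was added to it (15.4%) or EFNA3 replicate 1 was left out (20.2%). Leaving out 1 library at a time gave 1 to 5 members at an unadjusted p under 0.05 (3.12% to 15.1% of tested genes), 3 to 8 without overlap (19.6% to 33.8%), 8 to 9 higher and a median from 0.11 to 0.27. The limma count over all genes was 0, except 71 when the replicate block followed the descriptions, a fit that left few degrees of freedom.

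Replicate numbers were shared by the titles, but same-numbered libraries did not deviate together (correlations across genes of -0.11, 0.03 and -0.32). No control library correlated best with the EFNA3 library of its own number. Control replicates 1 and 2 did so with EFNA3 replicate 3 (0.11 and 0.18), and control replicate 3 with EFNA3 replicate 1 (0.30). Of the EFNA3 libraries only replicate 2 correlated best with its own number, at 0.03 against 0.02 for control replicate 1. The length trend, strongest in EFNA3 replicate 1, is part of these deviations. The correlations therefore cannot show whether same-numbered libraries shared a mouse, culture or batch. With the replicate block by the titles 1 member, B2m, stood at an unadjusted p under 0.05 (6.38% of tested genes). With the block by the descriptions 0 did (5.62%), and Psmb9 minus Psmb6 differed by -0.00025. There the second control and the second EFNA3 library had no partner. The cause of these moves was not tested. Depth is unknown, so no limit from counting can be given.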
